A study of Mus musculus with 6 samples.

Results

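The genes that make, carry and clear retinoic acid were examined in Müllerian ducts of mouse embryos lacking Cre or carrying it at the Amhr2 locus. The 9 genes were chosen by symbol: Stra6 for retinol uptake, Aldh1a1, Aldh1a2 and Aldh1a3 for synthesis, Crabp1 and Crabp2 for binding, Cyp26a1 and Cyp26b1 for degradation, and the receptor Rarb. Each had 1 row in the deposited table, out of 22206 transcript clusters with 19505 different gene symbols. Ducts were dissected at E17.5, late in gestation, frozen and hybridised with 1 Affymetrix array per embryo. The 3 control embryos had the genotype Lats1f/f,Lats2f/f, floxed alleles of both kinases, and no Cre. The 3 mutant embryos had the genotype Lats1f/f,Lats2f/f,Amhr2cre/+, so all 6 embryos shared the floxed alleles. Amhr2 drives Cre in the mesenchyme around the duct, and the mutants differ from the controls in the Cre allele itself as well as in the alleles it recombines. The labels call the samples biological replicates, without saying whether any shared a litter.

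Retinoic acid is made inside cells from circulating retinol. STRA6 takes up retinol from its serum carrier, dehydrogenases oxidise it to retinaldehyde, and the ALDH1A enzymes oxidise retinaldehyde to retinoic acid. CRABP proteins hold retinoic acid in the cytoplasm, RAR and RXR receptors carry its signal at DNA, and CYP26 enzymes hydroxylate it for removal. Along the Müllerian duct, retinoic acid signalling is known to favour the uterine over the vaginal fate of the mesenchyme. Cyp26a1 and Rarb are textbook targets, each with a retinoic acid response element close to its start site.

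Promoter sequences are shown for the genes that changed and their nearest relatives, and for Rarb, which shares the response element with Cyp26a1. They come from the RefSeq promoter windows of build GRCm38.p6, each with 250 bases before the start site and 50 after it, which held 7 of the 9 genes in 11 windows. Crabp2 and Aldh1a3 had no entry. Capitals mark 2 motifs searched on both strands. The first is a direct repeat of AGGTCA or AGTTCA or GGGTCA or GGTTCA with 5 bases between the copies, the form that RAR and RXR bind. The second is GGAATG, the core bound by TEAD factors, the DNA-binding partners of YAP and TAZ. The windows are chr19:37697558-37697857 on the plus strand for Cyp26a1, chr14:16575427-16575726 on the minus strand for Rarb, chr6:84593761-84594060 on the minus strand for Cyp26b1 and chr9:54764498-54764797 on the plus strand for Crabp1.
Cyp26a1: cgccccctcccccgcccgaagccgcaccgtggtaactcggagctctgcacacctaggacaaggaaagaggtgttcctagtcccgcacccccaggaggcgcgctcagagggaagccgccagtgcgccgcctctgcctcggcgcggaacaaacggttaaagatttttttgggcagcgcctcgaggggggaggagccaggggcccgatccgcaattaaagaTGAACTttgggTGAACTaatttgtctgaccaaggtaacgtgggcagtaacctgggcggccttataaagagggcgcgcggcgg
Rarb: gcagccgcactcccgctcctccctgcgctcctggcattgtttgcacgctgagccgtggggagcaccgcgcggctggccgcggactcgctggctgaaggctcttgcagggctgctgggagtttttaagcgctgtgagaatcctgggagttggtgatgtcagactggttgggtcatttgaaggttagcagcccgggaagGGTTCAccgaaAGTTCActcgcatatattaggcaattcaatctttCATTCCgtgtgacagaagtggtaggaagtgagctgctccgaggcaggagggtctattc
Cyp26b1: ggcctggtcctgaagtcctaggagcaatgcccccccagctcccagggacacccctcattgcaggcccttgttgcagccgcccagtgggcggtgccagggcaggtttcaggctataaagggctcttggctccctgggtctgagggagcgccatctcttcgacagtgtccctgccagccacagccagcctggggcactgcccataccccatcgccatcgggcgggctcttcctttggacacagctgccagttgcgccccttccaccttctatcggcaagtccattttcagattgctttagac
Crabp1: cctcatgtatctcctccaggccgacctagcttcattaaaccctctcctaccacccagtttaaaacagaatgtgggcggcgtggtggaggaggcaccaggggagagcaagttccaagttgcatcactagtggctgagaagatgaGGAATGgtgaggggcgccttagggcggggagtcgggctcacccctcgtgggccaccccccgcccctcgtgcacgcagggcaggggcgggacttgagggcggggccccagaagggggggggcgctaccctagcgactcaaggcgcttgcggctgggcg

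The 5-base-spaced repeat was rare in promoters of this length, in 32 of 32851 windows (0.0974%), and 2 of these were Cyp26a1 and Rarb. In Cyp26a1 it began 32 bases before the start site and read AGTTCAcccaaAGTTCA on the opposite strand. In Rarb it began 53 bases before the start site and read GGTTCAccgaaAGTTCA on the gene's strand. The GGAATG core was common, in 14.7% of all windows, and lay in 1 window each of Crabp1, Rarb and Aldh1a1, 107 bases before the start site in Crabp1. The Cyp26b1 window held neither motif. A match describes the letters in the window only.

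The antigenomic probes, which match no mouse transcript, set the background of each array at medians from 5.35 to 5.88 on the log2 scale. Lats1 had a log2 fold change of -0.78 ± 0.21 (limma adjusted p = 0.0958) and Lats2 of 0.22 ± 0.21 (limma adjusted p = 0.684). The sources used here do not place the probes against the floxed exons, so neither value tests recombination. Of the mesenchyme markers 10 of 11 and of the epithelial markers 11 of 13 were above background on all arrays, with Wnt7b and Lhx1 below it throughout. Of 10 ovary and germ cell markers, 5 were below background on all arrays, Foxl2 and Amh among them, and Fst, Inha and Sycp3 were above it on all. Fst, which encodes follistatin, was the 1 called (limma adjusted p under 0.05), with a log2 fold change of 1.94 ± 0.29 (limma adjusted p = 0.0071), where 2.59% of all transcript clusters were called higher. Of 7 testis somatic markers, 3 were below background on all arrays, Sox9 alone was above it on all, and none was called in limma. At an unadjusted p under 0.05, 2 of these 7 were lower, where 6.81% of all transcript clusters were. Control 3 stood apart in tissue content. Its log2 summed signal of 9 urothelial markers was 14.63, against 10.76 to 11.28 on the other 5 arrays, and that of 10 smooth muscle markers varied from 14.62 to 17.95 among controls. The smooth muscle sums of the mutants, 17.96 to 18.13, were all above the highest control, though the lowest mutant (17.9562) was close to control 3 (17.9505). The mean deviation of these markers from their means over the arrays, which weighs each alike, overlapped between groups. It was -1.27 to 1.64 in controls and -0.26 to 0.19 in mutants. Of these 10 markers Tagln was called higher (2.92 ± 0.30, limma adjusted p = 0.0011) and Synpo2 lower (-2.64 ± 0.33, limma adjusted p = 0.0029), and their part in the results was not tested. Among the 9 retinoic acid genes, Cyp26b1 and Stra6 had their lowest signal of the 6 arrays in control 3, and none had its highest there. Epithelial markers were lowest in mutant 3 among the mutants, with a log2 summed signal of 12.55 against 13.28 and 13.31, and spanned 12.45 to 13.82 in controls. Markers of mesothelium, a cell layer that expresses Aldh1a2, had overlapping sums of 14.93 to 15.41 in controls and 14.89 to 15.06 in mutants. These sums are weighted towards the brighter markers, and of the 9 measured Msln was called higher (1.48 ± 0.22, limma adjusted p = 0.0066). Its controls were near background at 5.64, 5.78 and 5.77, with control 3 below it, and its mutants at 7.56, 6.75 and 7.32. The size of this change is therefore uncertain. Of 12 immediate early and stress genes 5 were called higher, with log2 sums of 13.25 to 14.14 in controls and 14.63 to 14.86 in mutants, and their part in these results was not tested.

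**Figure D1:**
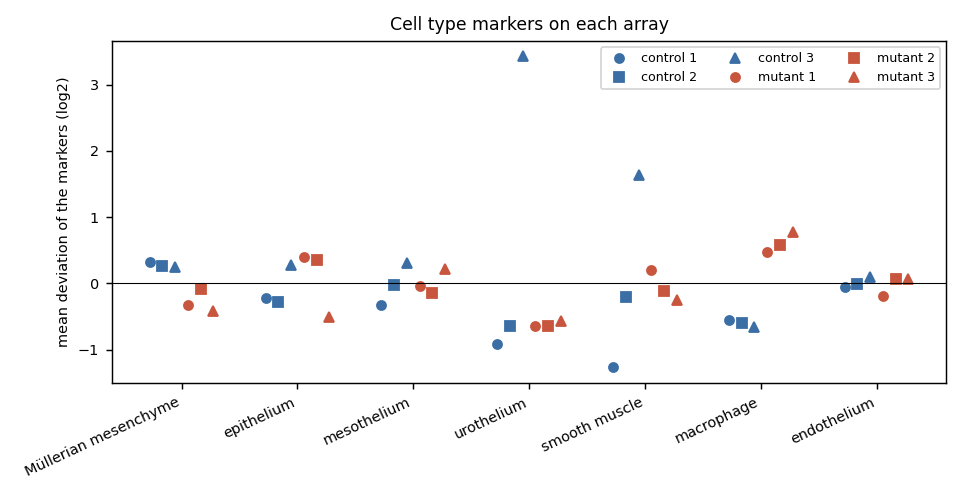
Mean deviation of cell type markers from their means over the 6 arrays (y axis, log2) for each array. By this mean, urothelial and smooth muscle markers are highest in control 3 and macrophage markers are higher on all 3 mutant arrays, and the mesenchyme markers, which include Amhr2, are lower there (without Amhr2, 0.07 to 0.16 in controls and -0.23 to 0.04 in mutants).

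The retinoic acid genes did not move together between genotypes. Of the 9, Cyp26a1 was higher and Crabp1 and Crabp2 were lower in mutant ducts at a limma adjusted p under 0.05, where all 22206 transcript clusters gave 3.26% called in either direction, 2.59% higher and 0.666% lower. The other 6 did not pass, and the arrays of both groups overlapped for each of them. The median log2 fold change of the 9 was 0.03, beside -0.01 over all transcript clusters. The arrays of the groups did not overlap for 3 of the 9, the same genes that passed, against 21.1% of all transcript clusters (10.9% higher and 10.2% lower). On all 6 arrays, 6 of the 9 genes lay above background, whereas Aldh1a1 did so on 5 and Cyp26a1 and Cyp26b1 on 1 each. Background here is the median of the antigenomic rows. Above their 90th percentile, 7.02 to 7.26, Aldh1a3 lay on 3 arrays and Aldh1a1, Cyp26a1 and Cyp26b1 on 0. Without control 3, Cyp26a1 (limma adjusted p = 0.0389), Crabp1 (0.0366) and Crabp2 (0.0470) still passed.

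**Figure D2:**
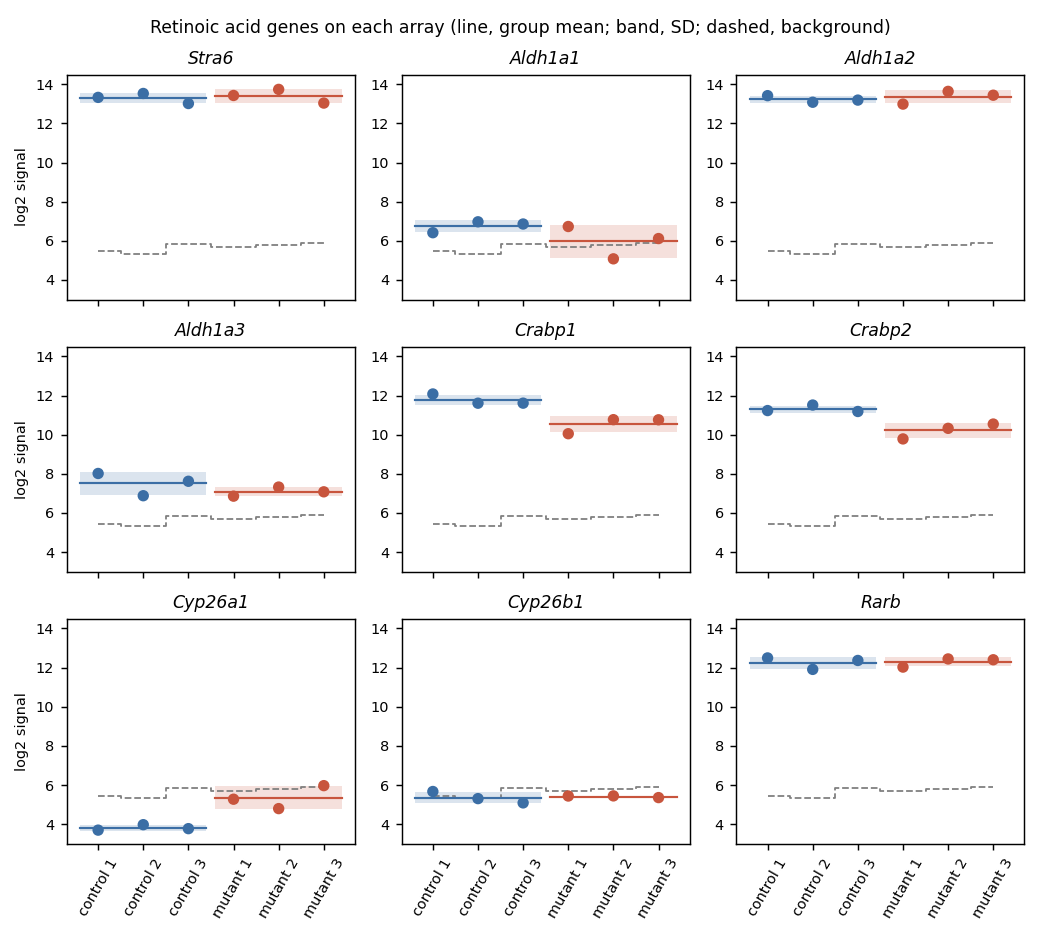
Log2 signal (y axis) of each retinoic acid gene on the 3 control and 3 mutant arrays (x axis), with the group mean as a line, the SD as a band and the background median of each array dashed. Crabp1 and Crabp2 are lower on every mutant array and well above background, whereas Cyp26a1 is higher on every mutant array but passes background only in mutant 3.

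Uptake and synthesis came first in the pathway and showed no called change. Stra6, the cell-surface retinol receptor, had log2 signals of 13.33, 13.53 and 13.02 in controls and 13.43, 13.74 and 13.04 in mutants. These values interleave, 7.16 or more above background on every array. The log2 fold change of Stra6 was 0.11 ± 0.22 (SE, n = 3 each), with a 95% interval from -0.39 to 0.61 and a limma adjusted p of 0.871. Aldh1a2, the main retinaldehyde dehydrogenase of embryonic mesenchyme and mesothelium, was at 13.42, 13.08 and 13.19 in controls and 12.99, 13.64 and 13.44 in mutants. Mutant 1 was the lowest and mutant 2 the highest of the 6 arrays. Its log2 fold change of 0.12 ± 0.21 had an interval from -0.34 to 0.59 (limma adjusted p = 0.837). Both genes had strong signals, and their intervals leave out rises beyond 0.61 on the log2 scale.

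The other retinaldehyde dehydrogenases were nearer background and more variable. Aldh1a1 was at 6.42, 6.97 and 6.86 in controls and 6.73, 5.08 and 6.12 in mutants. Mutant 2 alone lay below its background, by 0.72, and the spread of the mutants (SD 0.83) was larger than that of the controls (SD 0.29). The log2 fold change of Aldh1a1 was -0.77 ± 0.37, with an interval from -1.60 to 0.06, and did not pass (limma adjusted p = 0.366). It was -0.33 without mutant 2 and -1.15 without mutant 1, so its size depended on single arrays. Aldh1a3 was at 8.02, 6.88 and 7.62 in controls and 6.86, 7.32 and 7.08 in mutants, 1.19 to 2.56 above background. Here the spread lay in the controls, with control 1 high and control 2 at the level of the lowest mutant. Its log2 fold change was -0.42 ± 0.28, with an interval from -1.05 to 0.21 (limma adjusted p = 0.543). It was -0.16 without control 1 and -0.73 without control 2.

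Both binding proteins fell, at signals well above background. Crabp1, a cytoplasmic carrier associated with retinoic acid sequestration and turnover, had log2 signals of 12.08, 11.61 and 11.61 in controls and 10.05, 10.77 and 10.76 in mutants. The lowest control was 0.84 above the highest mutant, and every array was at least 4.38 above background. Crabp1 fell 2.36-fold, from 11.77 ± 0.27 to 10.52 ± 0.41 (SD, n = 3 each), which is -1.24 ± 0.24 (SE) as a log2 fold change (limma adjusted p = 0.0235). Crabp2, which passes retinoic acid to its receptors in the nucleus, was at 11.23, 11.51 and 11.18 in controls and 9.78, 10.32 and 10.54 in mutants. The groups were 0.64 apart, and mutant 1 was the lowest array for both binding proteins. Crabp2 fell 2.13-fold, by 1.09 ± 0.22 on the log2 scale (limma adjusted p = 0.0291). The changes of the 2 genes differed by -0.15 on the log2 scale, with an exact two-sided permutation p of 0.7 over arrays. That p stayed at 0.7 after adjustment over 5 pairs of genes, none of which reached an adjusted p under 0.25. With 3 arrays per group the smallest p this test can give is 0.1, so it could not have called any pair. The pairs of Cyp26a1 with Cyp26b1 and with Rarb were at this limit (exact permutation p = 0.1), and the other pairs were above it.

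The calls on the binding proteins depended on single arrays, while their direction did not. Crabp1 did not pass without control 1 (limma adjusted p = 0.0984), control 2 (0.0620) or mutant 1 (0.0690). Crabp2 did not pass without control 1 (0.0882), control 2 (0.112), mutant 1 (0.0874) or mutant 2 (0.0737). Over these 6 fits the log2 fold change ran from -1.36 to -1.0 for Crabp1 and from -1.26 to -0.88 for Crabp2. Markers of Müllerian mesenchyme were lower on the same arrays, with 1 of 11 called lower and 6 of 11 lower at an unadjusted p under 0.05. Over all transcript clusters these shares were 0.666% and 6.81%. Of the 11, Wnt4 alone was higher at an unadjusted p under 0.05, by 0.998 ± 0.230 on the log2 scale (limma adjusted p = 0.0530). Wnt5a (0.14), Wnt7b (0.49) and Col1a1 (0.04) also had positive log2 fold changes. The log2 of the summed signal of the 11 mesenchyme markers was 18.36 to 18.46 in controls and 17.98 to 18.09 in mutants. That sum is weighted towards the brightest markers, whereas the mean deviation of the markers from their means over the arrays weighs each alike, at 0.24 to 0.33 in controls and -0.42 to -0.08 in mutants. Amhr2, the 1 called, fell by 3.73 on the log2 scale (limma adjusted p = 0.000112). Only the mutants carry Cre at the Amhr2 locus, so an effect of that allele on Amhr2 cannot be told apart from less mesenchyme. Without Amhr2, a choice made after seeing the data, the mean deviation was 0.07 to 0.16 in controls and -0.23 to 0.04 in mutants. The part of cell composition in the fall of Crabp1 and Crabp2 was not tested, and in whole ducts fewer cells of a type cannot be told apart from less RNA per cell.

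**Figure D3:**
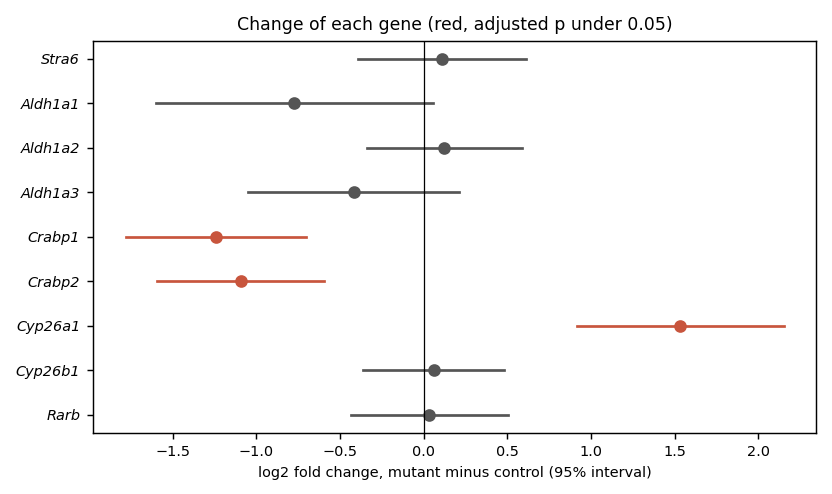
Log2 fold change of each gene (x axis, mutant minus control) with its 95% interval from limma, in red where the adjusted p is under 0.05. Only the intervals of Cyp26a1, Crabp1 and Crabp2 leave out 0, and that of Aldh1a1 ends at 0.06.

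Of the degrading enzymes, Cyp26a1 was higher in mutants at the limit of detection. Its log2 signals were 3.69, 3.97 and 3.77 in controls and 5.27, 4.79 and 5.97 in mutants. All controls lay below background, by 1.38 to 2.09, as did mutant 1 (by 0.40) and mutant 2 (by 1.01), and mutant 3 was 0.09 above it. The groups were 0.82 apart, and the fitted difference was 1.53 ± 0.27 on the log2 scale (SE, n = 3 each) with a limma adjusted p of 0.0165. This is a difference between signals that lay below background on 5 of the 6 arrays, so it does not measure the size of a change and no fold is given. The call was lost without control 1 (limma adjusted p = 0.0741), control 2 (0.0513) or mutant 1 (0.0585), and the fitted difference was 1.22 without mutant 3, the array with the highest signal. Cyp26b1, the second retinoic acid hydroxylase, was at 5.67, 5.30 and 5.09 in controls and 5.44, 5.44 and 5.36 in mutants, with control 1 alone above background. Its log2 fold change of 0.06 ± 0.19 (limma adjusted p = 0.921) is a difference between signals at background.

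Rarb, the receptor that retinoic acid itself induces, had strong signals of 12.49, 11.91 and 12.36 in controls and 12.03, 12.44 and 12.40 in mutants. The lowest array was a control and so was the highest. Its log2 fold change was 0.03 ± 0.21, with an interval from -0.44 to 0.50 (limma adjusted p = 0.962). The promoters of Cyp26a1 and Rarb printed above share the 5-base-spaced repeat. The 32 windows with the repeat belonged to 31 genes, of which 10 were measured. Cyp26a1 alone among these 10 passed, and their median log2 fold change was 0.06. Only Blvrb, Rarb, Syndig1 and Tnfsf13b were above background on all 6 arrays, and Cfap45, Ppbp, Prokr2 and Prss27 were on none, which limits what this median shows.

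The rest of the retinoid pathway was read from lists of other genes, of which 46 of 52 listed symbols had a row. Fabp5 rose and none fell, where 2.59% of all transcript clusters were called higher and 0.666% lower. At an unadjusted p under 0.05, 5 were higher and 3 lower. In either direction 3398 of all 22206 transcript clusters had such a p, a share to set also beside the lists that follow. Their median log2 fold change was 0.01. Of the 46, 10 were below background on all arrays.

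Among 10 genes of retinol uptake and storage none passed in limma, 3 had an unadjusted p under 0.05, and the median log2 fold change was -0.03. Rbp4, the serum carrier that docks on STRA6, was at 8.77, 8.70 and 8.73 in controls and 8.46, 7.29 and 8.13 in mutants. Every mutant was lower, with mutant 2 the farthest, and the log2 fold change was -0.78 ± 0.27 (limma adjusted p = 0.203), or -0.44 without mutant 2. Rlbp1, a retinaldehyde-binding protein, had -0.45 ± 0.17 (limma adjusted p = 0.246) at signals below background in all mutants.

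Among 20 oxidoreductases of retinol and retinaldehyde none passed in limma, 2 had an unadjusted p under 0.05, and 6 were below background on all arrays. The pair with the smallest p pointed opposite ways. Rdh10, the retinol dehydrogenase that supplies retinaldehyde in the embryo, was at 11.11, 10.49 and 10.39 in controls and 9.98, 10.16 and 9.68 in mutants. The groups were 0.23 apart, with a log2 fold change of -0.73 ± 0.23 and an interval from -1.24 to -0.21 that did not pass after adjustment (limma adjusted p = 0.158). Rdh11, a reductase that also acts on retinaldehyde, was at 8.57, 8.88 and 8.82 in controls and 9.46, 9.33 and 9.56 in mutants. Its log2 fold change was 0.69 ± 0.17 (limma adjusted p = 0.0624), and it passed without the dimmest rows, with adjusted p of 0.0459 and 0.0245, with a trended prior (0.0456) and with array weights (0.0426). Dhrs3, which reduces retinaldehyde back to retinol and is induced by retinoic acid, had a log2 fold change of 0.16 ± 0.20 (limma adjusted p = 0.772) and was named after its value was seen.

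Of 2 further enzymes of degradation neither passed. Cyp26c1, the third of the family, was below background on every array. Cyp2s1, a cytochrome P450 that can metabolise retinoic acid, had 0.47 ± 0.18 on the log2 scale (limma adjusted p = 0.239).

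Fabp5 was the single call among 14 receptors and cofactors. It encodes a fatty acid binding protein that can also carry retinoic acid to the receptor PPAR delta. Its log2 signals were 7.99, 8.89 and 8.44 in controls and 9.61, 9.29 and 9.84 in mutants, 0.40 apart. Fabp5 rose 2.21-fold, by 1.14 ± 0.25 (SE, n = 3 each) on the log2 scale with a limma adjusted p of 0.0422. The call held without control 2 and was lost in the other 5 fits that left out an array, with limma adjusted p of 0.138 without control 1, 0.0849 without control 3, 0.131 without mutant 1, 0.0590 without mutant 2 and 0.137 without mutant 3. Macrophage markers were higher on the same arrays, with a log2 summed signal of 13.58 to 13.72 in controls and 14.49 to 14.90 in mutants and 8 of 11 called higher, where 2.59% of all transcript clusters were. Their part in the Fabp5 result was not tested. Among the receptors, Rara, named after its value was seen, had 0.58 ± 0.19 on the log2 scale without passing (limma adjusted p = 0.173).

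**Figure D4:**
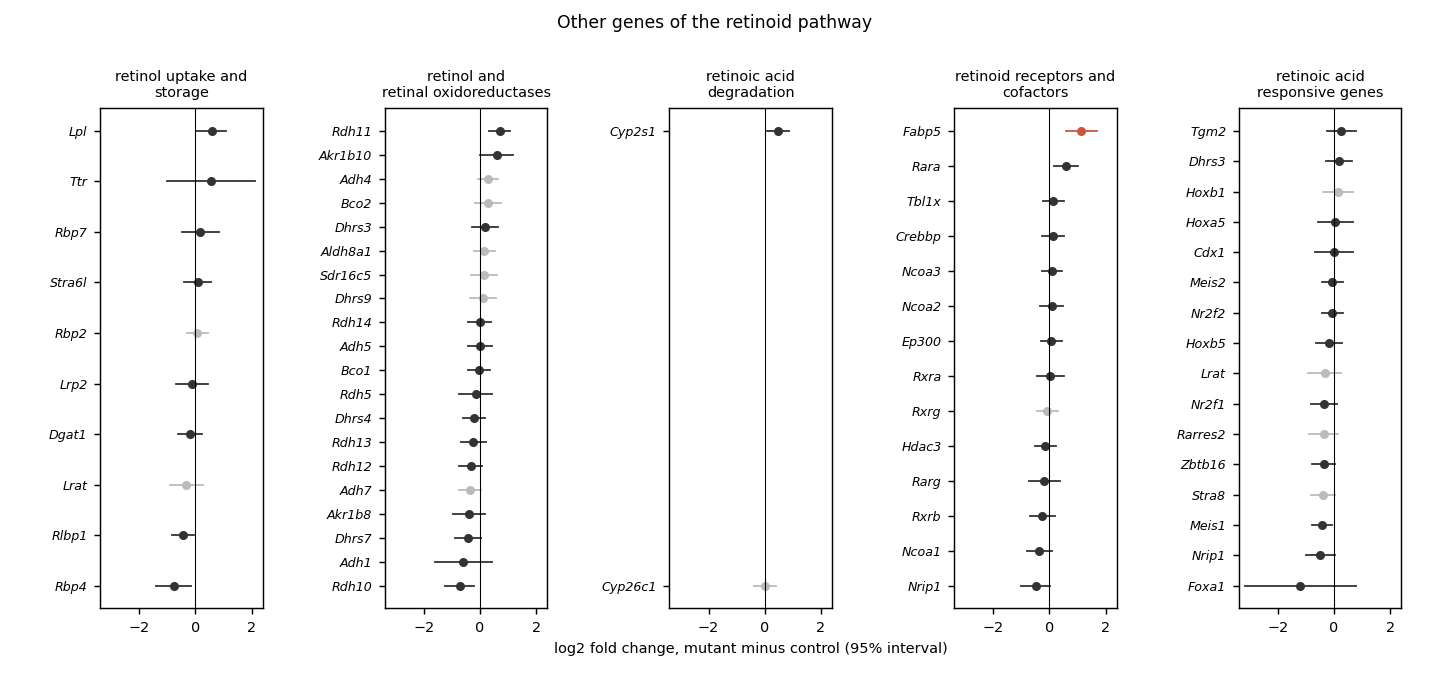
Log2 fold change (x axis, mutant minus control) with 95% intervals for the measured genes of 5 further retinoid lists, in red where the adjusted p is under 0.05 and in light grey where the signal was below background on all arrays. Fabp5 is the single red point, and Rdh10 and Rdh11 stand at opposite ends of the oxidoreductases.

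Genes known to respond to retinoic acid were also not called. None of 16 measured passed in limma in either direction, 1 had an unadjusted p under 0.05, and 4 were below background throughout. Their median log2 fold change was -0.25, beside -0.01 over all transcript clusters. Dim rows limit what this median shows. Of the 4 below background throughout, Stra8, Lrat and Rarres2 had negative values and Hoxb1 a positive one. Foxa1, also negative, was above background in control 3 alone. Of the 9 above background on all arrays, Dhrs3 (0.16), Tgm2 (0.26) and Hoxa5 (0.04) were positive. The others of these 9 ran from -0.49 (Nrip1) to -0.06 (Meis2). Meis1, a homeobox partner of HOX proteins, was at 15.60, 15.55 and 15.28 in controls and 15.04, 15.01 and 15.05 in mutants. The groups were 0.22 apart, and the log2 fold change of -0.44 ± 0.16 did not pass (limma adjusted p = 0.235). Zbtb16, a zinc finger repressor, had -0.38 ± 0.18 (limma adjusted p = 0.354) with all mutants below background.

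The genes whose array profile was most like that of each called gene were sought among genes called in the same direction. Likeness was the mean absolute difference of centred log2 signals over the 6 arrays. Genes so chosen share the step between groups, so their likeness tests nothing. For Crabp1 and Crabp2 they also had to be above background on all arrays of a group. For Cyp26a1, itself above background on 1 array, this was not required. The nearest to Crabp1 were Ntng1 (0.11), Cacna2d3 (0.12) and Pcdh10 (0.13), out of 134 genes whose median difference was 0.29. For Crabp2 the nearest were Zfp790 (0.09), Pcp4l1 (0.11) and Rassf2 (0.12), out of 134 with a median of 0.26. For Cyp26a1 they were Cd59a (0.12), Cldn12 (0.13) and Gpnmb (0.14), out of 538 with a median of 0.40.

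**Figure D5:**
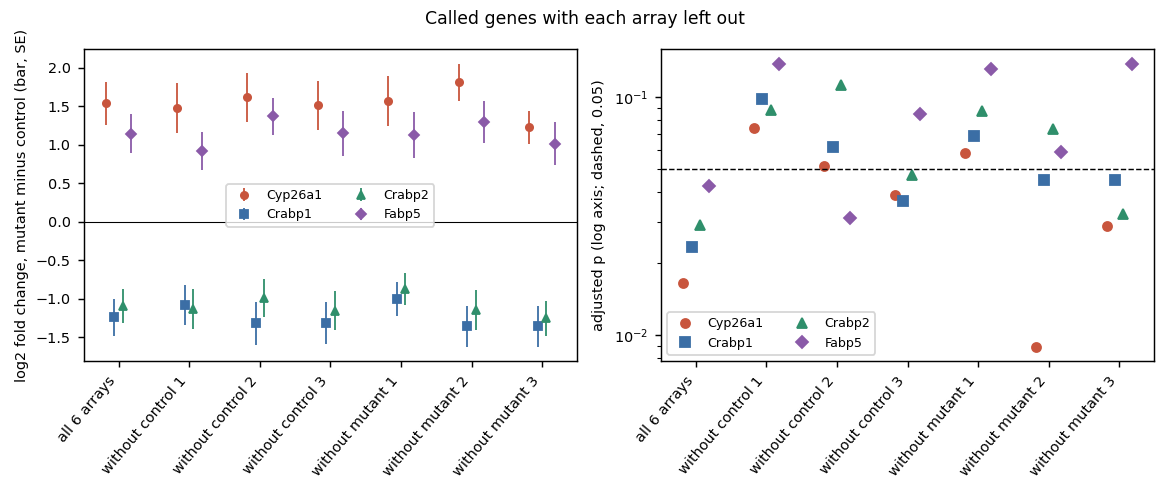
Log2 fold change with its SE (left) and limma adjusted p on a log axis (right) of the called genes over all 6 arrays and with each array left out in turn. The direction is kept in every fit, while the adjusted p crosses 0.05 in 3 fits for Cyp26a1 and Crabp1, 4 for Crabp2 and 5 for Fabp5.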

How the data were processed

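Values are log2 signals per transcript cluster from the table the authors deposited, 1 column for each array, made with Transcriptome Analysis Console 4.0 per the submitters' processing notes. The summarisation, normalization and genome build are not given in the sources used here. Array medians were 6.87 to 6.95, and the log2 values were used as deposited. Control rows were left out. Rows were named by the platform's gene symbols.

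Each of the 22206 transcript clusters was fitted by genotype with lmFit and eBayes of limma 3.58.1 (R 4.3.3, two-sided, Benjamini-Hochberg adjustment over all rows, threshold 0.05). On simulated data of 22206 rows, 35% of rows changed by 1 on the log2 scale and 86% of rows changed by 2 were recovered. A signal at or under the median of the 23 antigenomic rows of its array is called below background. Precision is limited by the number of arrays. A limma p-value sets the group difference against a spread between these samples that is drawn towards that of all rows.

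The members and lists were chosen with earlier results of these data known. The text names all members, the called genes of each further retinoid list or else the 2 with the smallest p, and the 3 nearest profiles of each called member. Alternatives were 2 normalizations, 2 filters on dim rows, another prior, array weights, a block, an unequal-variance test and each array left out. Same-numbered arrays did not deviate together. Figures were drawn with matplotlib 3.10.9.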

Additional observations from a re-analysis of the deposited data

How the results depend on the processing

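Of the 9 members, 1 was called higher and 2 lower over all arrays. The higher call (Cyp26a1) became 0 under both filters on dim rows, which leave that gene out, and 0 with the unequal-variance test per row. That test called 0 of all 22206 rows, with 2332 at an unadjusted p under 0.05, where limma had 3398. The lower calls were 1 with the replicate block, where Crabp1 had a limma adjusted p of 0.0566, and 0 with the unequal-variance test. Same-numbered arrays had deviation correlations of 0.0078, 0.042 and -0.0030. With 3 arrays per group these values cannot tell whether same-numbered samples were paired or shared a litter. With 1 array left out the higher calls ran from 0 to 1 and the lower from 0 to 2. Calls among the other 46 pathway genes were 1 higher over all arrays, 2 under both filters, the trended prior and array weights, 0 with the replicate block and the unequal-variance test, and 0 to 1 with 1 array left out. No alternative gave a lower call there or any call among the responsive genes. The cause of these differences was not tested. The sign of genes near 0 turned: Rarb was -0.0035 after quantile normalization and -0.066 with array weights, and ran from -0.14 to 0.17 with 1 array left out. Aldh1a2 ran from -0.016 to 0.31, Cyp26b1 from -0.074 to 0.22 and Stra6 from -0.059 to 0.29. The 6 members above background on all arrays were 5 at the 90th percentile of the background rows, where Aldh1a3 fell out, and 7 without mutant 2.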
